A study of Mus musculus with 4 samples.

Results

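Memory-like CD8 T cells of the transplanted mouse lung, the members described here, were chosen by their own RNA as cells that carried CD8 T cell transcripts together with Gzmk or Ccl5. The gate used raw counts of unique molecular identifiers (UMIs, each standing for 1 captured RNA molecule). A cell needed at least 2 UMIs of Cd3e, Cd3d and Cd3g together, at least 1 of Cd8b1, and at least 1 of Gzmk or 3 of Ccl5. It held no UMI of Cd4, Foxp3, Trdc or Cd79a, and S100a8 and S100a9 made up under 1% of its UMIs. The gate found 503 cells among the 24291 that held 200 or more genes and no more than 10% of UMIs from mitochondrial genes. They were set against 993 CD8 T cells that passed the same gate with Gzmk at 0 and Ccl5 under 3 UMIs, here called the comparator CD8 T cells, and against 1249 natural killer (NK) cells.

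The cells came from left lungs grafted between B6 mice and taken out 2 h after engraftment. Grafts had spent 60 min at 4 °C and 45 min at 28 °C before transplantation. The animals received resolvin D1 (RvD1, a lipid mediator derived from docosahexaenoic acid, injected into a vein, 200 ng for each mouse, in a volume of 200 µL with 1% ethanol) or the vehicle alone. The labels' protocols name the recipient as the treated animal, while the series' design text names the graft. CD45-positive leukocytes of donor and of recipient origin were each submitted as a library. This gave 4 groups of 1 library, donor cells with vehicle or with RvD1 and recipient cells with vehicle or with RvD1. All groups are B6 and no other genotype is given. Each library pooled 2 lungs, and the sources used here do not say whether a donor and a recipient library share their lungs. By these labels the donor libraries hold cells that came with the graft and the recipient libraries hold cells of the host.

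The 4 libraries held 42199775 to 61294707 UMIs over 5195 to 7836 barcodes, with library medians of 5479 to 8073 UMIs per cell. The members' median depth was 7841.5 UMIs (vehicle) and 8401 (RvD1) in donor cells and 11760 and 10312 in recipient cells. The comparator's medians were 11212, 10074, 9514.5 and 8507 in the same order. Ribosomal protein genes took 20.5%, 29.7%, 33.8% and 36.0% of the members' UMIs. Pairs of libraries shared 4 to 14 cell barcodes, and 0 members carried a shared barcode. The file headers name Cell Ranger 6.1.1 for both vehicle libraries and 7.0.1 for both RvD1 libraries, and the version cannot be told apart from the treatment.

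CD8 T cells recognise peptides on MHC class I and kill the cell that shows them with perforin and granzymes. Naive CD8 T cells circulate through lymph nodes with the chemokine receptor Ccr7 on their surface, while memory cells keep cytotoxic and chemokine genes ready and patrol tissue and blood. Granzyme K (Gzmk) is a protease of early effector and memory cells, and the chemokine Ccl5 is stored by memory CD8 T cells and NK cells.

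Members made up more of the CD8 T cells of donor origin than of those that came from the recipient. They numbered 194 of 355 gated CD8 T cells in the vehicle donor library, or 54.6% (95% exact binomial interval 49.3 to 59.9). In the RvD1 donor library they were 144 of 225, or 64.0% (57.4 to 70.3). They were 58 of 310 in the vehicle recipient library, or 18.7% (14.5 to 23.5), and 107 of 606 in the RvD1 recipient library, or 17.7% (14.7 to 20.9). Both donor intervals lay above both recipient intervals, and the intervals of the 2 treatments overlapped within each origin. As a share of all cells of the library, members were 3.43%, 2.83%, 0.980% and 1.40% in the same order. The gate counts UMIs, so depth bears on it: with every cell thinned to 1500 UMIs before gating, the shares of CD8 T cells were 66.7%, 74.7%, 14.3% and 18.8%, over 56, 62, 9 and 27 members. With 1 library per group none of these differences has a replicate check, and all intervals cover counting error only.

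**Figure D1:**
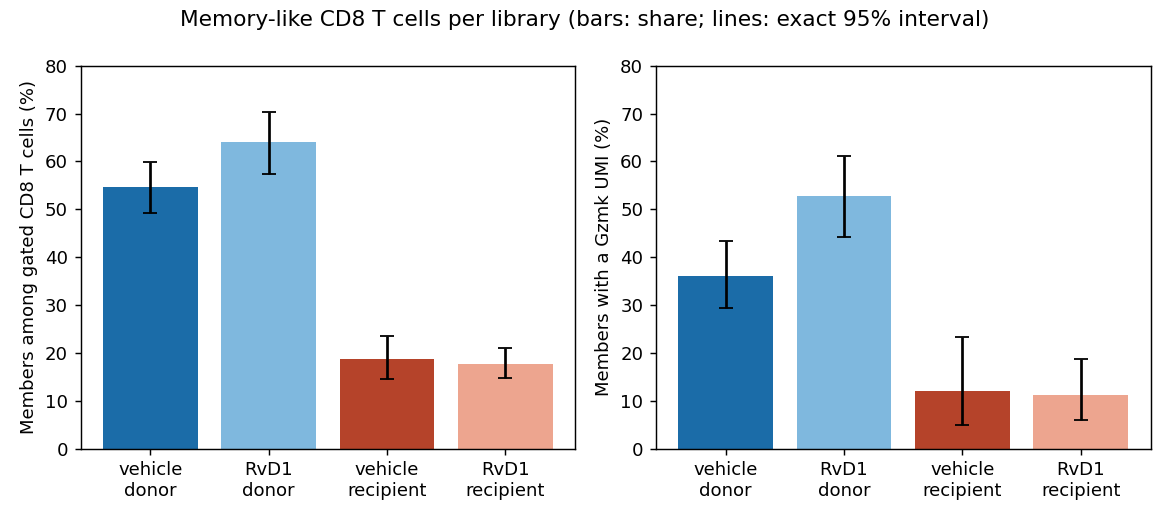
Share of memory-like cells among gated CD8 T cells (left, in %) and share of members with a Gzmk UMI (right, in %) in each of the 4 libraries, with exact 95% intervals as lines. Both donor bars, at 54.6% and 64.0% on the left, stand above both recipient bars, at 18.7% and 17.7%.

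Most members qualified through Ccl5, and Gzmk was commoner in donor than in recipient members. Gzmk (chromosome 13, 113171608 to 113225908, GRCm38) had a UMI in 36.1% of vehicle donor members (29.3 to 43.3) and in 52.8% of RvD1 donor members (44.3 to 61.1). It had one in 12.1% of vehicle recipient members (4.99 to 23.3) and in 11.2% of RvD1 recipient members (5.93 to 18.8). In B cells, which should lack Gzmk, 0%, 0.369%, 0% and 0.105% of cells had a UMI, at median depths of 6695, 6707, 5632 and 4768 UMIs. After thinning to 1500 UMIs the members' shares were 11.9%, 29.9%, 3.45% and 2.80%. Only 1 of the 503 members qualified through Gzmk with Ccl5 under 3 UMIs. Ccl5 (chromosome 11, 83525778 to 83530518) had a median of 74 UMIs per cell in donor members with vehicle and 104 with RvD1, and of 47.5 and 45 in recipient members. Just inside the threshold, 1, 4, 2 and 4 members held exactly 3 Ccl5 UMIs, and just outside it 5, 4, 5 and 14 comparator cells held 2. These genes chose the cells, so their values are a description.

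The RefSeq promoter window of Gzmk on GRCm38.p6 is the 250 bases before the gene start (chr13:113180966-113181215, minus strand). It is shown because Gzmk is part of the gate and the T-box factors Eomes and Tbx21 were among the genes higher in members. The window lies inside the longer gene span that GENCODE gives, since the 2 annotations place the start differently. Capitals mark the T-box half-site GGTGTGA, searched on both strands.
Gzmk: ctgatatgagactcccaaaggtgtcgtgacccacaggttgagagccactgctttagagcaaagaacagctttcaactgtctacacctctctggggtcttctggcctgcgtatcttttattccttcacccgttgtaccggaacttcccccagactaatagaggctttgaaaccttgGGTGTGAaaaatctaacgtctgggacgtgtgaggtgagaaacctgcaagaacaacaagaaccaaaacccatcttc
This half-site stood in 3.33% of all 32851 windows of that length and in 3.39% of the 7877 tested genes with a window. It stood in 5.41% of the 629 higher genes and in 4.06% of the 493 lower genes with a window. A match is a description of letters and not of binding, and its part in any level was not tested.

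Markers that the gate did not use are given for the CD8 lineage (Cd8a) and for memory. Most went with the label, and Cd44 did not pass. Genes that vary together with Ccl5 or Gzmk were in part chosen by the gate, so these markers are no independent check of the label. Levels are given in CPM, the UMIs of a gene over all UMIs summed for that class and library, times 1000000. Values of 4 libraries stand in 1 order throughout: donor cells with vehicle, then with RvD1, then recipient cells with vehicle, then with RvD1. Cd8a, the partner chain of Cd8b1, stood at 184, 159, 126 and 110 CPM in the 4 member sums and at 49.0, 54.7, 49.8 and 69.0 in the comparator, with no overlap. Of the memory markers, Il2rb, Cxcr3, Eomes, Ly6c2 and Nkg7 were higher in members and Cd44 did not pass the test. Ly6c2, a surface antigen of memory CD8 T cells, was at 266, 268, 300.2 and 372 CPM in members and 46.5, 54.7, 77.4 and 100.3 in the comparator, a log2 difference of 2.01 ± 0.12 (SE; edgeR quasi-likelihood test, adjusted p = 3.07e-06). Cd44, the classical memory adhesion receptor, was at 158, 221, 87.9 and 90.8 CPM in members but at 183, 141, 15.2 and 19.1 in the comparator (log2 difference 0.93, edgeR adjusted p = 0.138). The donor comparators overlapped with the members for Cd44 and the recipient comparators lay far lower. The same donor comparators held Il23r at 32.2 and 57.1 CPM and Zbtb16, the factor of innate-like T cells, at 58.9 and 95.1 CPM, against 0 Il23r and at most 0.454 CPM of Zbtb16 in the recipient comparators. With cells carrying any UMI of such unconventional T cell genes left out of both classes, the Cd44 difference was 1.13 (edgeR adjusted p = 0.0384), an alternative chosen after seeing the data. The vehicle donor comparator was then still at 166 CPM against 167 in members, and the RvD1 donor comparator at 60.4 against 155. Over the 15 alternatives that kept a count minimum, Cd44 passed in 4, at 1.03 to 1.61, and did not pass in 11, at 0.58 to 1.31 (edgeR or DESeq2 adjusted p = 0.052 to 0.649). It passed without the vehicle donor library (1.53, edgeR adjusted p = 0.00544) and not without either recipient library (0.59 and 0.58).

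Markers of other cells were present in members and are given as measured, and their part in the results was not tested. Ncr1, the defining NK receptor, was at 2.52, 0, 13.5 and 8.01 CPM in members. It was at 277 to 392 CPM in NK cells, whose gate required an Ncr1 UMI. Ms4a1 of B cells was at most 1.35 CPM in members. Of 5 measured NK cell genes Klra8 and Klra4 were higher and Txk was lower, and the list summed to 518, 587, 659 and 665 CPM in members against 569, 592, 396 and 567 in the comparator. Of 4 measured B cell genes 1 passed, H2-Ab1, whose UMIs in vehicle recipient members all came from 1 cell. The B cell list summed to 1259, 123, 921 and 57.9 CPM in members against 503, 51.1, 44.3 and 83.5 in the comparator. Of 7 measured neutrophil and 7 measured monocyte and macrophage genes 0 passed with edgeR or DESeq2, and 2 and 0 had an unadjusted edgeR p under 0.05. Their summed levels in members were 84.9 to 249 and 87.3 to 1028 CPM. The macrophage lysozyme Lyz2 reached 308, 703, 550 and 27.6 CPM in members, with 64.4%, 35.2%, 93.1% and 58.1% of those UMIs in a single cell. Of the unconventional T cell genes Cd163l1, Tcrg-C2 and Trgv2 were higher and Il23r was lower. The summed level of that list was 40.3, 174, 55.4 and 84.6 CPM in members and 126, 253, 15.2 and 18.8 CPM in the comparator. UMIs of these genes sat in 28, 50, 9 and 17 members.

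Across 10031 genes outside the gate, 807 were higher in members (8.05% of all tested) and 644 lower (6.42%) by the edgeR quasi-likelihood test with the library as a block and Benjamini-Hochberg adjustment at 0.05. The p-values set the mean class difference against its estimated spread between these 4 libraries, which may not be independent. The block takes out the level of each library, and edgeR takes much of the spread estimate from other genes (7.726 prior degrees of freedom). Without the vehicle donor library 367 genes were lower and without the RvD1 donor library 418. The test asks which differences recur over the 4 libraries, and genes that vary together with Ccl5 or Gzmk among CD8 T cells were in part chosen with them.

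Genes of memory and effector differentiation were higher as a group. Of 22 measured, 19 were higher and 0 lower, with a median log2 difference of 2.08 against -0.01 over all genes tested. Eomes, a T-box factor of memory cells, was at 23.2, 95.2, 22.99 and 17.8 CPM in members and at 1.98, 0, 2.33 and 2.04 in the comparator. That is a log2 difference of 3.70 ± 0.43 (SE, edgeR adjusted p = 0.00024), and the RvD1 donor library stood above the other 3 member sums. Tbx21 (T-bet), which drives effector genes, was at 148, 58.7, 48.7 and 36.5 CPM against 2.48, 16.6, 2.72 and 5.22, with vehicle donor members highest. Cxcr3, the receptor that draws effector cells to inflamed tissue, was at 35.3, 60.7, 36.5 and 31.2 CPM against 4.95, 1.19, 3.11 and 2.04. Lgals1 (galectin-1), Itgb1, Zeb2, Prdm1 and Id2 were among the others that were higher.

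Cytotoxic genes were higher in 11 of 14 and lower in 0 (median 1.93). Gzma (granzyme A, chromosome 13, 113093825 to 113100981) was at 1778, 429, 414 and 574 CPM in members and at 19.8, 10.7, 5.06 and 30.9 in the comparator, a log2 difference of 5.29 ± 0.32 (SE, edgeR adjusted p = 3.37e-06). Vehicle donor members held the most, and no member sum overlapped with a comparator sum. Gzmb (granzyme B) was at 474, 212, 93.3 and 180 CPM against 18.3, 15.5, 17.9 and 25.2, again with vehicle donor members highest. Fasl, the death ligand, was at 169, 117, 43.3 and 65.0 CPM against 6.93, 14.3, 3.89 and 7.03. Prf1 (perforin), Nkg7, Gzmm and Serpinb9, which protects a killer from its own granzyme B, were also higher, with log2 differences of 1.75, 2.12, 4.60 and 2.72.

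NK receptors showed the widest differences. Of 12 measured genes of the list 11 were higher and 0 lower, with a median log2 difference of 5.12, also with Klra1 set to its bound. Klrc1 (NKG2A, an inhibitory receptor; chromosome 6, 129666015 to 129678973) was at 146, 179, 143 and 128 CPM in members and at 0, 5.94, 1.17 and 3.18 in the comparator, a log2 difference of 5.85 ± 0.33 (SE, edgeR adjusted p = 3.07e-06). The level was much alike over the 4 member sums. Klrg1, a receptor of terminal effector cells, was at 66.0, 20.7, 14.9 and 17.8 CPM in members, with 192 UMIs in all against 1 in the comparator, a ratio of 357 (exact interval 63.3 to 14161). Among the Ly49 receptors, Klra7 was at 4.03, 4.14, 27.0 and 83.7 CPM and Klra1 at 8.56, 4.83, 8.11 and 38.3 CPM, both highest in RvD1 recipient members. Klra1 had 73 UMIs against 0, so it was at least 45.2-fold higher at a floor of 3 counts over the class, and Klra8 with 53 against 0 at least 32.8-fold. These receptors were in few cells: Klra7 in 4, 1, 7 and 18 members and Klra1 in 2, 2, 2 and 9. The Klra genes are close copies of each other, so reads could be split between them.

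Chemokines and cytokines followed in 4 of 8 measured genes (Xcl1, Ifng, Ccl4 and Ccl3), with 0 lower. Ccl4, a chemokine that draws T cells and monocytes, was at 138, 85.6, 24.3 and 34.7 CPM in members and at 3.47, 3.57, 1.94 and 0.907 in the comparator (log2 difference 4.68 ± 0.26, edgeR adjusted p = 3.07e-06). Donor members lay above recipient members. Ifng (interferon gamma) was at 35.3, 13.1, 13.5 and 5.34 CPM against 0.495, 0, 1.17 and 0. Of the Xcl1 UMIs of vehicle recipient members, 89.5% came from 1 cell.

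**Figure D2:**
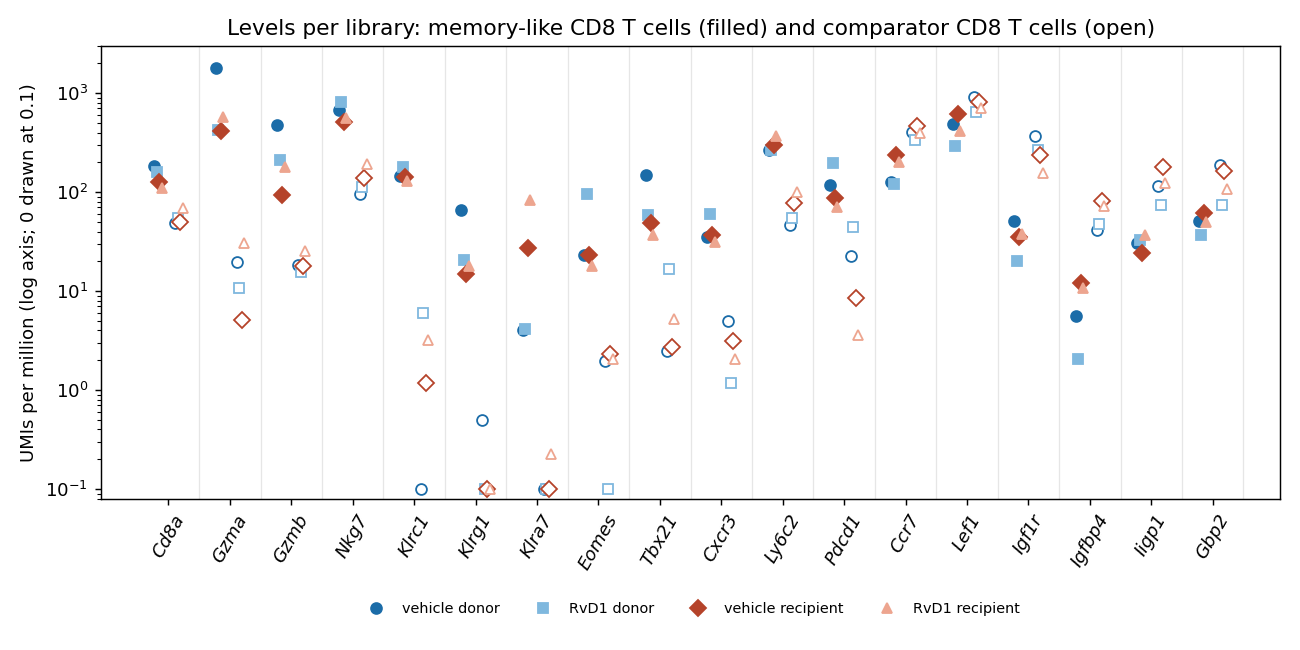
Levels of 18 genes in CPM on a log axis, one point per library, for members (filled) and comparator CD8 T cells (open). Values at 0 are drawn at 0.1. Gzma reaches 1778 CPM in vehicle donor members, and Igfbp4 and Iigp1 lie lower in all 4 member sums than in any comparator sum.

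Genes of naive T cells and of lymph node homing were lower in 12 of 14 and higher in 0, with a median log2 difference of -1.07. Ccr7, which guides cells into lymph nodes, was at 126, 120, 239 and 199.5 CPM in members and at 406, 340, 463 and 399 in the comparator (-1.41 ± 0.14, edgeR adjusted p = 8.73e-05). The classes did not overlap, and the recipient members lay closer to the comparator. Lef1 and Tcf7, the factors that keep T cells naive or stem-like, were lower by smaller amounts, at -0.93 and -0.77. The call for Tcf7 was lost without the RvD1 donor library (-0.62, edgeR adjusted p = 0.0648) and with no library block (-0.72, edgeR adjusted p = 0.0743). Il7r, the survival receptor kept by naive and memory cells alike, did not pass (-0.57, edgeR adjusted p = 0.10) and was at 292, 488, 723 and 749 CPM in members against 740, 740, 702 and 698.

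The genes with the largest negative differences included Igf1r (chromosome 7, 67952827 to 68233668), the receptor for an insulin-like growth factor. It was at 50.9, 20.01, 35.2 and 37.4 CPM in members and at 368, 266, 236 and 155 in the comparator (-2.97 ± 0.21, edgeR adjusted p = 8.92e-06). Igfbp4, which binds the same growth factor, was at 5.54, 2.07, 12.2 and 10.7 CPM against 41.1, 47.5, 81.3 and 72.8. Both were lower in all 4 libraries without overlap. Auts2, Gria3 and Hdac9 had 50, 25 and 6 UMIs in members against 783, 462 and 143 in the comparator. Pcsk1 had 0 against 66, at least 11.8-fold lower at the floor, and Gpr83 had 1 against 93.

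Interferon-stimulated genes were lower in members in 12 of 25 and higher in 0, with a median log2 difference of -0.56. Iigp1, an interferon-induced GTPase that attacks the vacuoles of intracellular parasites, was at 30.7, 33.1, 24.3 and 36.5 CPM in members and at 115, 73.7, 180 and 123 in the comparator (-2.02 ± 0.20, edgeR adjusted p = 8.16e-05). Gbp2, a guanylate-binding protein, was at 50.9, 37.3, 62.2 and 49.9 CPM against 187, 73.7, 165 and 108. For both genes every member sum lay under every comparator sum. Ifit1, which binds viral RNA, was at 27.7, 5.52, 8.11 and 9.80 CPM against 35.6, 14.3, 48.6 and 29.3, and its classes overlapped. Irf1, a factor that carries the interferon signal, was lower at -0.56. With cells carrying myeloid UMIs left out, an alternative chosen after seeing the data, 15 of the 25 were lower.

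The RefSeq windows of 250 bases before the gene start are shown for Ifit1 (chr19:34640639-34640888, plus strand) and Gbp2 (chr3:142620413-142620662, plus strand), GRCm38.p6, as 2 lower genes that hold the interferon-stimulated response element. Capitals mark its core, GAAA followed by any 2 bases and GAAA, searched on both strands, with 2 matches in Ifit1 and 1 in Gbp2.
Ifit1: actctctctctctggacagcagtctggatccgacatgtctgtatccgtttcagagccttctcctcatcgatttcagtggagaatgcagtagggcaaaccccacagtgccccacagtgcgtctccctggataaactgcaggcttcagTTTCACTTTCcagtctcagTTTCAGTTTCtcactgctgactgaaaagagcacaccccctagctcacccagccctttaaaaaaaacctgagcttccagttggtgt
Gbp2: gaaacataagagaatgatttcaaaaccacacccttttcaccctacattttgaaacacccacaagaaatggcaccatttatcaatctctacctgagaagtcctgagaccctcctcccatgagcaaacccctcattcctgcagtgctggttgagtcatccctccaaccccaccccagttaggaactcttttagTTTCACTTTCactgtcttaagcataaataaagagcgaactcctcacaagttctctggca
The motif stood in 2.98% of all 32851 windows and in 3.45% of the 7877 tested genes with a window. It stood in 8.52% of the 493 lower genes with a window (42 genes) and in 2.54% of the 629 higher ones (16 genes, Gzma and Eomes among them). Of the interferon-stimulated list 18 genes had a window and 10 held the motif; with that list left out, 7.61% of 486 lower genes held it. No test was made of these shares, and a match does not show that a factor binds.

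**Figure D3:**
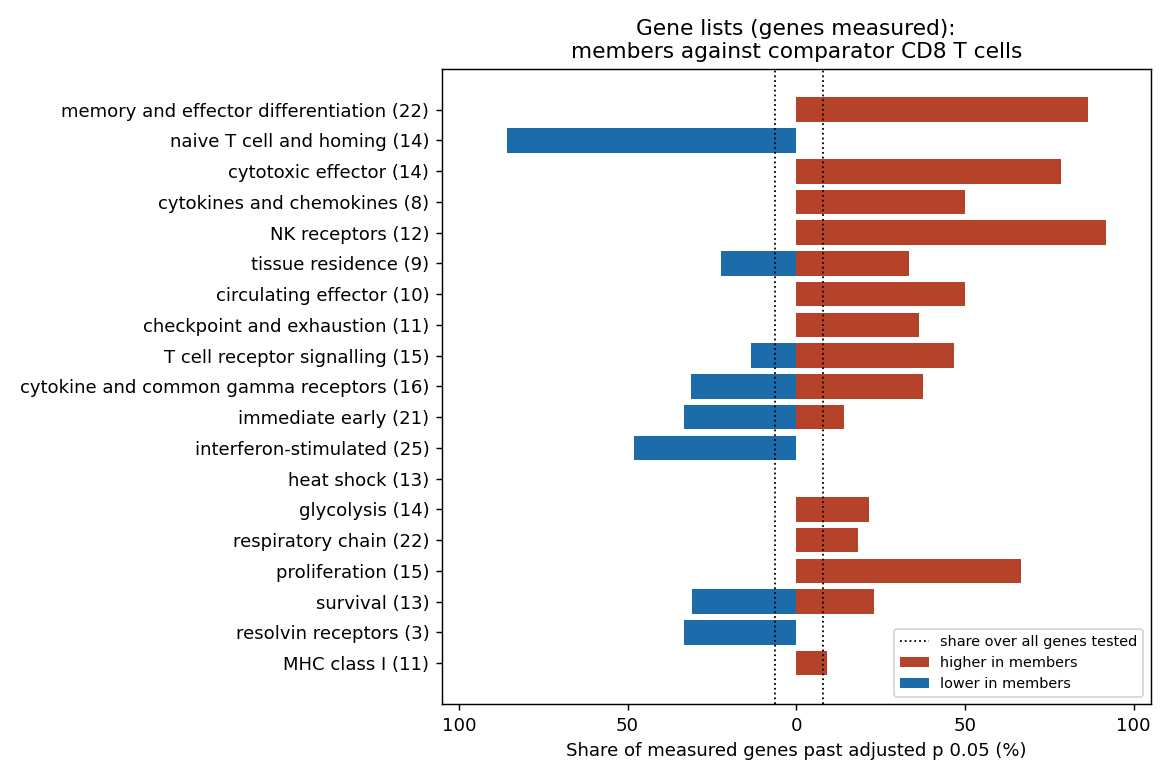
Share of the measured genes of each list (number measured in brackets) that were higher (right, red) or lower (left, blue) in members than in comparator CD8 T cells at an edgeR adjusted p under 0.05, in %. Dotted lines mark the shares over all genes tested, 8.05% and 6.42%. NK receptor, memory and cytotoxic genes extend far to the right, naive and interferon-stimulated genes to the left.

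Genes that mark lung residence did not move as a group: of 9 measured, 3 were higher (Itga1, Crtam, Rgs1) and 2 lower (Itgae, Cd69). Itgae (CD103), the integrin that holds resident cells to epithelium, was at 3.02, 0.690, 8.11 and 0.891 CPM in members against 13.9, 16.6, 14.4 and 14.1. Cxcr6, a receptor of lung-resident T cells, did not pass (0.18, edgeR adjusted p = 0.503). Of 11 checkpoint genes 4 were higher (Pdcd1, Tigit, Entpd1, Tnfrsf9) and 0 lower. Pdcd1 (PD-1) was at 119, 196, 87.9 and 71.2 CPM in members against 22.8, 44.0, 8.56 and 3.63 (2.76 ± 0.28, edgeR adjusted p = 0.000101). Tox, Lag3 and Ctla4 did not pass.

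Receptors and signalling genes were mixed. Of 15 T cell receptor signalling genes 7 were higher and 2 lower, with the damping receptors Cd6 and Cd5 highest at log2 differences of 1.81 and 1.77. Of 16 cytokine receptors 6 were higher (Il15ra and Il10ra leading) and 5 lower (Il6st, the shared chain of the interleukin-6 family, leading at -1.40). Of 21 immediate early genes 3 were higher (Nr4a2, Dusp2, Dusp5) and 7 lower, among them Jun, Fos and Nfkbia. Of 13 survival genes 3 were higher and 4 lower, with the death receptor Fas at 37.3, 42.1, 63.6 and 79.3 CPM in members against 149, 137, 152 and 171 (-1.64 ± 0.16, edgeR adjusted p = 7.76e-05).

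Cell cycle genes were higher in 10 of 15 and lower in 0, and they came from few cells. Mki67, a marker of dividing cells, had UMIs in 24, 9, 3 and 5 members, and 1 cell gave 73.3% of them in each recipient library. Top2a was at 72.5, 46.2, 47.3 and 25.8 CPM against 18.3, 22.6, 12.1 and 11.1. With cells carrying myeloid UMIs left out, 5 of 11 measured were higher. Of 22 respiratory chain genes 4 were higher, of 14 glycolysis genes 3, and of 11 MHC class I genes 1. Of 13 heat shock genes 0 passed with edgeR or DESeq2, and 1 had an unadjusted edgeR p under 0.05.

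Of 3 measured genes of the list of resolvin receptors and related receptors, Gpr18 passed. It was at 94.2, 121, 151 and 191 CPM in members and 144, 175, 189 and 233 in the comparator, lower in members by -0.56 ± 0.11 (edgeR adjusted p = 0.00504). Members lay under the comparator within each library, and the ranges overlapped across libraries. Fpr2, a receptor named for RvD1, did not pass and had UMIs in 5, 3, 1 and 0 members. The Gpr18 call was lost without the library block (edgeR adjusted p = 0.322) and after thinning (edgeR adjusted p = 0.0536).

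Members shared the cytotoxic genes with NK cells but held less of most of them. Of 10331 genes tested, 1236 were higher in members (12.0% of all tested) and 1184 lower (11.5%) by the same edgeR test. Of 13 cytotoxic genes 8 were lower and 2 higher, and of 14 NK receptors 11 were lower and 0 higher. Klra8 was at 14.6, 2.07, 6.76 and 14.2 CPM in members and at 620, 879, 767 and 1025 in NK cells (-6.11 ± 0.32, edgeR adjusted p = 2.35e-06). Serpinb9b, a serpin of NK cells, was at 1.51, 0, 1.35 and 1.78 CPM against 181, 109, 155 and 161. In the other direction, 12 of 15 T cell receptor signalling genes and 14 of 25 interferon-stimulated genes were higher, with 1 and 0 lower. Members were gated on Cd3 and Cd8b1 UMIs, and NK cells on Ncr1 and Nkg7 with no Cd3 UMI. Genes of T cells and of NK cells that vary together with these were thus in part chosen by the gates. Themis, needed for T cell receptor signalling in thymocytes, was at 398, 352, 291 and 296 CPM against 0, 0, 2.04 and 1.19. The summed level of the interferon-stimulated list in members, 1228 to 1587 CPM, lay within every library between those of comparator CD8 T cells (1309 to 2446) and NK cells (758 to 865).

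Donor members with a Gzmk UMI differed from those without one in the same library. They numbered 70 and 124 in the vehicle donor library and 76 and 68 in the RvD1 donor library, with median depths of 8422 and 7470.5, and of 7237 and 11385.5 UMIs. The genes named here were chosen after their values were seen, and ratios carry exact intervals for counting error only. Ccr7 was at 29.3 CPM with and 180 without Gzmk in vehicle donor members (log2 ratio -2.62), and at 14.8 and 212 in RvD1 donor members (-3.84, -4.93 to -2.92). It was lower with Gzmk in both libraries, as were Tcf7, Lef1 and Il7r.

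Of the killing and tissue entry genes looked at, Nkg7, Gzma, Gzmb, Prf1, Cxcr6 and Cxcr3 were higher with Gzmk in both donor libraries. Gzmm was not: it was at 10.4 CPM with and 36.2 without Gzmk in RvD1 donor members (-1.80, -3.24 to -0.57), and at 19.5 and 11.8 in vehicle donor members, where the interval included 0. Nkg7 was at 955 and 528 CPM in vehicle donor members and at 1130 and 539 in RvD1 donor members. Gzmb was at 759 and 314 CPM, and at 318 and 119. Cxcr6 was at 110 and 59.9 CPM, and at 151 and 43.9, with log2 ratios of 0.88 (0.41 to 1.35) and 1.78 (1.21 to 2.39). Tbx21, Il2rb and Klrd1 had intervals that included 0 in both libraries. A set of genes differed far more in the RvD1 donor library: Pdcd1 was at 375 CPM with and 40.1 without Gzmk there (3.23, 2.68 to 3.81), and at 184 and 81.9 in the vehicle donor library (1.17, 0.79 to 1.55). Tox, a factor of chronically stimulated T cells, was at 613 and 110 CPM in RvD1 donor members and at 109 and 78.0 in vehicle donor members. Eomes, at 178 and 23.3 against 32.1 and 18.1 CPM, and Zeb2, at 298 and 49.1 against 466 and 384 CPM, followed the same pattern. For Eomes the interval in vehicle donor members included 0 (0.83, -0.07 to 1.72). Pdcd1 had a UMI in 53 of 76 Gzmk-positive and 10 of 68 Gzmk-negative RvD1 donor members, so many cells carried it. In B cells of that library 0.738% had a Pdcd1 UMI. Cd44 went opposite ways, at 355 CPM with and 103 without Gzmk in RvD1 donor members and at 133 and 173 in vehicle donor members. UMIs of unconventional T cell genes sat in 50 of 144 RvD1 donor and 28 of 194 vehicle donor members. The part of those cells in the split by Gzmk was not tested. No replicate shows whether the difference between the libraries recurs.

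**Figure D4:**
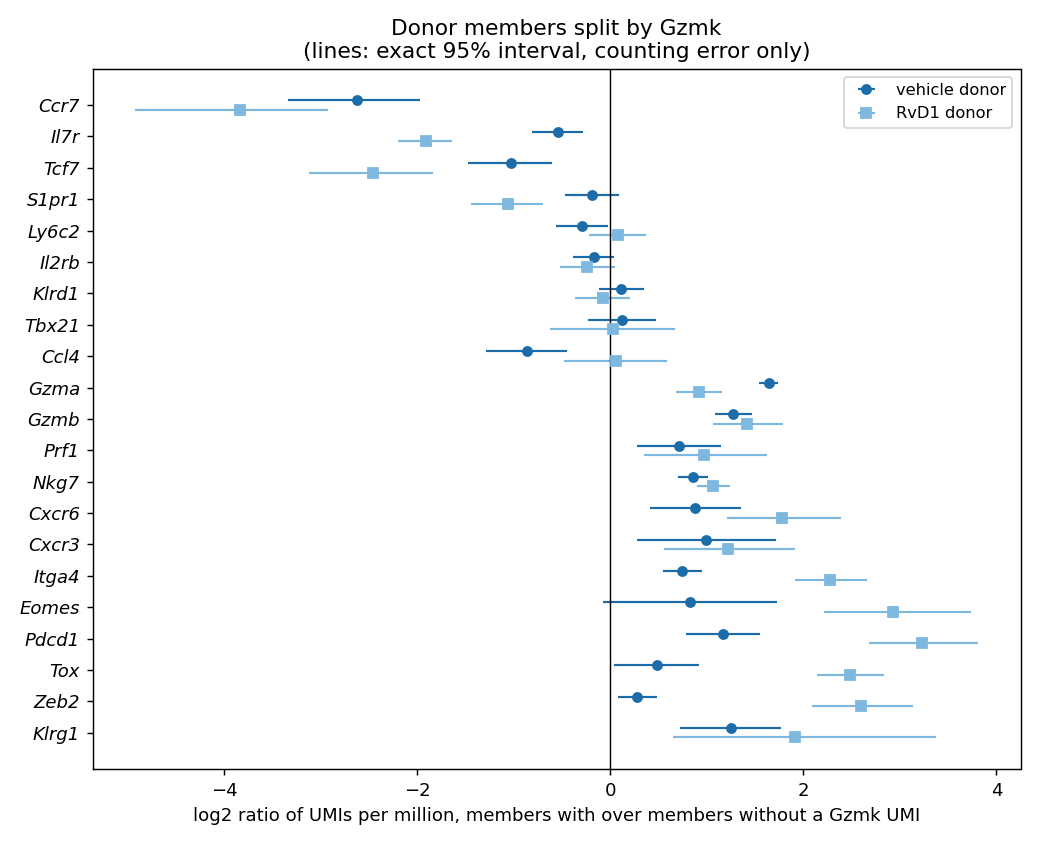
Log2 ratio of CPM between donor members with and without a Gzmk UMI for 21 genes, in the vehicle donor and RvD1 donor libraries, with exact 95% intervals as lines. Ccr7 and Tcf7 lie left of 0 in both libraries, Gzmb and Nkg7 right of 0, and Pdcd1, Tox, Eomes and Zeb2 lie further right in RvD1 donor members.

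Recipient members were set against donor members within each treatment, where the software version is the same. Of 5428 genes with at least 50 UMIs over both libraries of each contrast, 42 were at least 1.5-fold higher in recipient members in both (0.774% of those described) and 343 lower (6.32%). The median log2 ratio of all these genes was -0.26 with vehicle and -0.19 with RvD1. On the TMM scale, which brings those medians to -0.01 and -0.02, the counts were 107 and 136, so the split depends on the scaling. There is no test with 1 library per group.

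Genes of the naive T cell and homing list lay higher in recipient members. Of 12 described, 5 were at least 1.5-fold higher in both contrasts (among them Actn1, Ccr7, Il7r and Tcf7) and 0 lower, and 7 were higher on the TMM scale. Ccr7 was at 239 CPM in recipient and 126 in donor members with vehicle (log2 ratio 0.93, 0.64 to 1.21), and at 199.5 and 120 with RvD1 (0.73, 0.44 to 1.03). In the comparator the Ccr7 ratios were 0.19 and 0.23. Il7r was at 723 and 292 CPM with vehicle and at 749 and 488 with RvD1. Fas, Il6st and Gpr18 were also at least 1.5-fold higher in both.

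Memory, residence and effector genes lay lower in recipient members. Of 22 memory and effector genes described, 10 lay at least 1.5-fold lower with either treatment and 0 higher, against 5 lower on the TMM scale. Zeb2, a factor of terminal effector cells, was at 78.4 and 413 CPM with vehicle (-2.40, -2.81 to -2.01) and at 73.9 and 165 with RvD1 (-1.16, -1.54 to -0.79). Of 4 residence genes 3 were lower, or 2 on the TMM scale: Cxcr6 was at 33.8 and 78.1 CPM with vehicle and at 29.4 and 93.9 with RvD1, beside Rgs1 and Rgs2. In the comparator the Cxcr6 ratios were -1.65 and -1.54, and 3 of 6 residence genes and 11 of 17 memory and effector genes were lower there too. Fgl2, a secreted fibrinogen-like protein, was at 4.06 and 67.5 CPM with vehicle and at 8.91 and 55.2 with RvD1, and its comparator ratios were -3.56 and -4.80. Hist1h1b, a histone gene of dividing cells, was lower at -1.70 and -1.91, with 67.5% of the vehicle recipient UMIs in 1 cell. Gzma did not keep a direction, at -2.10 with vehicle and 0.42 with RvD1.

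Members without Gzmk gave 18 higher and 76 lower of 4071 genes described (0.442% and 1.87%), an alternative chosen after seeing the data. Among them 0 of 12 naive and homing genes were at least 1.5-fold higher in both contrasts. Of 20 memory and effector genes 1 was lower, while 4 of 4 residence genes were lower. The part of the share of Gzmk-positive cells in the difference was not tested. With cells carrying myeloid UMIs left out, 27 genes were higher and 362 lower of 4597 (0.587% and 7.87%). There 1 of 11 naive and homing genes was higher and 7 of 20 memory and effector genes were lower.

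**Figure D5:**
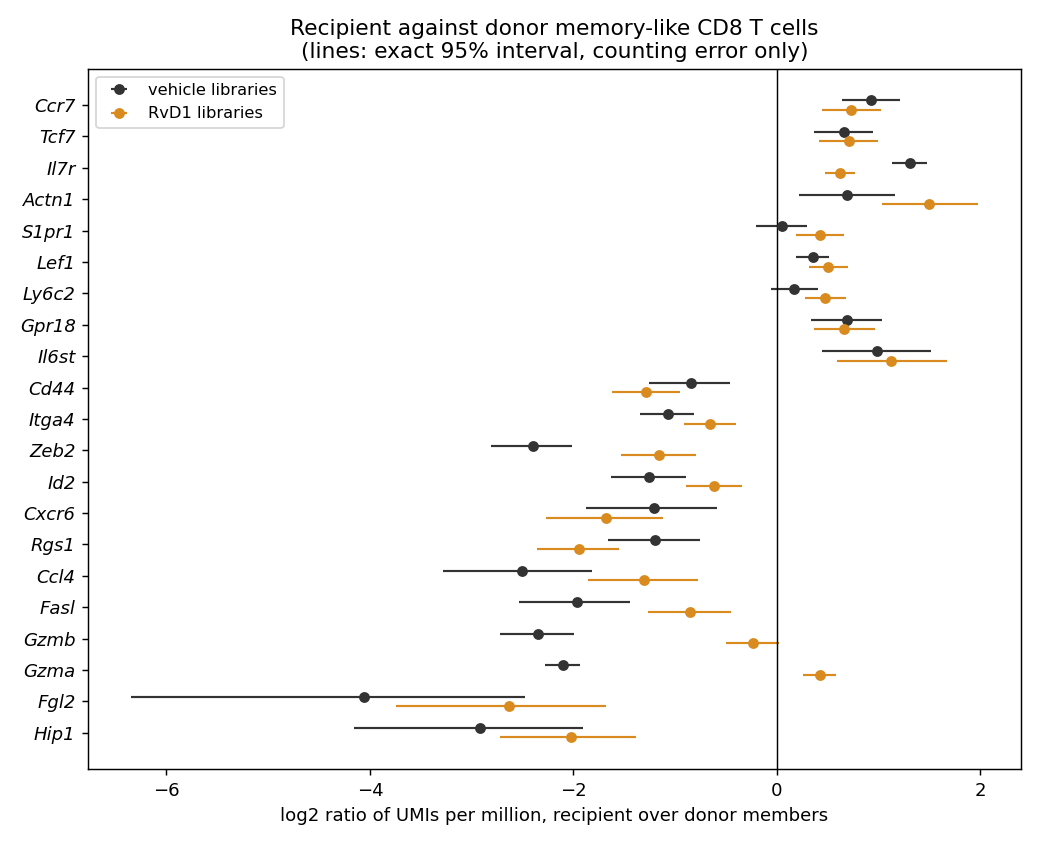
Log2 ratio of CPM in recipient over donor members for 21 genes, with vehicle and with RvD1, with exact 95% intervals as lines. Ccr7 and Tcf7 lie right of 0 in both treatments and Zeb2, Cxcr6, Fgl2 and Hip1 left of 0, while Gzma lies at -2.10 with vehicle and 0.42 with RvD1.

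Between RvD1 and vehicle members few genes differed in the same direction in both origins. Of 4441 genes described, 36 were at least 1.5-fold higher with RvD1 in both (0.811%) and 177 lower (3.99%). On the TMM scale the counts were 74 and 60, and the medians of all described genes moved from -0.21 in donor and -0.12 in recipient members to -0.02 and -0.003. Of the 12 cytotoxic, 12 naive and homing, and 22 respiratory chain genes described, 0 passed in both origins in either direction. These contrasts carry the change of software version.

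Several of the leading genes moved likewise in the comparator. Wdr89, a WD-repeat protein, was at 129 CPM with RvD1 and 46.8 with vehicle in donor members (1.46, 1.10 to 1.84) and at 247 and 59.5 in recipient members (2.05, 1.59 to 2.55), with comparator ratios of 1.06 and 1.75. Ddah1, Ocel1 and the ribosomal copies Rps27rt, Rpl10-ps3 and Rpl9-ps6 also had comparator ratios above 0 in both origins, and the copies share reads with near-identical genes, so their levels are uncertain. Ikzf2 (Helios), a factor of regulatory and chronically stimulated T cells, was at 143 and 68.5 CPM in donor members (1.06, 0.74 to 1.38) and at 157 and 50.03 in recipient members (1.65, 1.13 to 2.20). Its comparator ratios were -2.22 and -0.38. Of the vehicle Ikzf2 UMIs 25.7% and 27.0% came from 1 cell each. Ccr2, a receptor for inflammatory chemokines, was at 125 and 44.8 CPM and at 46.3 and 21.6.

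Among the lower genes were the MHC class II genes H2-Eb1, H2-Ab1, H2-Aa and Cd74, which present antigen in B cells and myeloid cells. In vehicle recipient members 97.8% to 100% of their UMIs came from 1 cell, and in vehicle donor members 34.3% to 44.8%. Cd74 was at 62.1 CPM with RvD1 and 671 with vehicle in donor members and at 8.01 and 525 in recipient members. Abr, Brwd1 and Phlpp1 were lower with all intervals under 0, and 45.9% of the Phlpp1 UMIs of vehicle recipient members came from 1 cell. Mt1, a metallothionein, was at 49.0 and 148 CPM and at 26.7 and 169, with 51.2% of the vehicle recipient UMIs in 1 cell.

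Gzma and Gzmb went opposite ways in the 2 origins. Gzma was at 429 CPM with RvD1 and 1778 with vehicle in donor members (-2.05, -2.18 to -1.93), and at 574 and 414 in recipient members (0.47, 0.27 to 0.67), where 53.3% of the vehicle UMIs came from 1 cell. Gzmb was at 212 and 474 CPM in donor members (-1.16, -1.35 to -0.98) and at 180 and 93.3 in recipient members (0.95, 0.55 to 1.36). Vehicle donor members were thus the highest of the 4 for Gzma and Gzmb. Gzmm, with 110 UMIs over all members, did not follow, at 14.6, 24.2, 27.0 and 23.2 CPM in members. In the share of cells, Gzma had a UMI in 63.4%, 31.2%, 27.6% and 40.2% of members (47.9%, 17.4%, 19.0% and 27.1% after thinning), against 4.78%, 1.48%, 1.49% and 1.79% of B cells. Cx3cr1, the fractalkine receptor of circulating effector cells, had one in 46.4%, 14.6%, 10.3% and 15.0% of members (22.2%, 4.17%, 5.17% and 8.41% after thinning), against 6.15%, 4.80%, 4.47% and 3.69% of B cells. Itga1, the collagen-binding integrin, had one in 20.1%, 5.56%, 1.72% and 5.61% of members (7.22%, 1.39%, 0% and 1.87% after thinning), against 1.37%, 2.58%, 0.458% and 0.422% of B cells. The vehicle donor members thus held the highest share for these 3 genes, before and after thinning.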

How the data were processed

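Leukocytes were profiled with the 10x Genomics 3' v3 kit, per the labels' protocols. Cell Ranger (6.1.1 for vehicle, 7.0.1 for RvD1, per the file headers) gave the deposited matrices of unnormalized UMI counts, with 32285 genes. The build mm10 and Seurat 4.0.0 are named in the submitters' processing notes. The sources used here do not say whether introns were counted.

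Barcodes with 200 or more genes and no more than 10% of UMIs from mitochondrial genes were gated on raw UMIs. NK cells had no Cd3e, Cd3d or Cd3g UMI, at least 1 Ncr1 and 2 Nkg7 UMIs, no Cd79a and S100a8 with S100a9 under 1%. B cells had at least 2 Cd79a UMIs and no Cd3 UMI. Scrublet (scanpy 1.11.5, expected rate 0.8% per 1000 cells) called 68 to 278 doublets per library, 11 of them members; they were kept, and removed in an alternative. UMIs were summed per class and library (8 sums) and tested with edgeR 4.0.16 in R 4.3.3 (TMM, quasi-likelihood, library as block, at least 50 UMIs, adjusted p under 0.05). The same code had first been run on simulated data. Those data held no differences between libraries beyond their size, so that run does not bear on the spread seen here. DESeq2 1.42.0, other scalings, minimums and gates, and leaving out each library were alternatives. Between libraries, ratios of CPM by total UMIs carry exact binomial intervals at 95%, with a floor of 3 counts for 0 and no test. Thinning drew 1500 UMIs per cell; 0 members were shallower. Genes of the gate were not tested.

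The genes named are the 14 largest differences each way among calls with 1 sign in all 4 libraries (8 each way against NK cells), up to 4 genes per list of 28 lists, and the 8 largest each way between libraries; other genes named were chosen after their values were seen. The members and lists were chosen with earlier results of these data known. Gene positions are from GENCODE M21 and promoter windows from RefSeq. Calculations used Python 3.11.15, numpy 2.4.6, scipy 1.17.1 and pandas 2.3.3. Some genes are not reported here.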

Additional observations from a re-analysis of the deposited data

Results flagged for a closer look

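For 5 genes that did not pass the test between members and comparator CD8 T cells, the difference went one way in both libraries of one kind and the other way in both libraries of the other kind. These differences between groups were not tested. With 4 libraries such a split of signs can arise by chance, and no share over all genes stands beside the count. The 5 genes are thus a description and not a result about the groups. For Il2ra, the high-affinity interleukin-2 receptor chain, members minus comparator gave -28.3 CPM for the mean of the donor pair of libraries minus that of the recipient pair, with donor comparators at 26.7 and 35.7 CPM and donor members at 6.55 and 7.59. For Ighm, a B cell gene, the donor pair differed from the recipient pair by -17.1 CPM. Between the vehicle and the RvD1 pair the difference was 12.9 CPM for the heat shock gene Hspa1b, -1.82 CPM for its partner Bag3 and 10.1 CPM for the neutrophil receptor Csf3r. For Bag3 the classes were nearly level with RvD1, at 13.11 CPM in members against 13.07 (donor) and 7.12 against 7.03 (recipient). Over all members the UMIs were 33 for Il2ra, 110 for Ighm, 82 for Hspa1b, 54 for Bag3 and 31 for Csf3r.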

How the results depend on the processing

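Against comparator CD8 T cells, the 807 higher and 644 lower genes became 556 and 415 with DESeq2 and 508 and 279 with no replicate block. They became 315 and 305 after thinning, which tests fewer genes. Leaving out 1 library gave 580 to 647 higher and 367 to 493 lower genes, and against NK cells 861 to 982 and 868 to 960. With no minimum count edgeR's prior degrees of freedom were infinite, so a gene's own spread did not enter its p-value, and that setting's calls are not read as stability. Over the others, values of named genes kept direction and side of the threshold in 1530 cases, gained a call in 40, lost one in 41 and turned in 1. The macrophage gene Chil3, at -0.41 over the 4 libraries, ranged from -2.54 without the RvD1 donor library to 1.25 without the vehicle donor library (edgeR adjusted p = 0.00969). The 116 cases against NK cells held. The library was the block, and the labels give no other pairing.

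RvD1 against vehicle gave 17 higher and 86 lower genes at a minimum of 100 UMIs, 74 and 60 on the TMM scale, and 11 and 9 after thinning. Recipient against donor gave 24 and 171 at that minimum, 107 and 136 on the TMM scale, 7 and 52 after thinning, 27 higher without cells carrying myeloid UMIs, and 18 and 76 for members without Gzmk. Of single ratios, 15 and 9 moved beyond their interval and 141 and 135 did not. Thinning before gating moved the members' shares to 66.7%, 74.7% and 14.3% (vehicle donor, RvD1 donor, vehicle recipient). The causes were not tested. The recipient libraries hold the fewest members, 58 and 107.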
